A study of Drosophila melanogaster with 4 samples.

Results

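mir-980 is a Drosophila microRNA (miRNA) gene whose hairpin gives a 5p and a 3p arm. Both arms are described here across 4 small RNA libraries. They were taken as every row of the deposited table named for mir-980, which gave 2 of 495 rows, 1 for each arm, and each row had values in all libraries. The gene was chosen by its measured level: miR-980-5p was more abundant in each library with a construct than in the library without one. Its levels, arm ratio and tails are therefore given as a description, with no test.

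The libraries came from Schneider 2 (S2) cells, an embryo-derived line with features of blood cells, in which CRISPR-Cas9 had removed Nibbler (Nbr). All 4 groups share this deletion, and each holds 1 library. The group nbrKO carries nothing else, and the others are nbrKO cells stably transfected with Act5C>Nbr(wt), Act5C>NbrCTD or Act5C>NbrCTD-GWp. Act5C is an actin driver, and the sample titles call the constructs overexpressed. What CTD and GWp stand for is not spelled out in the labels, nor is whether a line was 1 clone. Cells with Nbr intact and cells with an empty construct were not analysed here, so carrying any construct cannot be told apart from carrying Nbr.

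A miRNA hairpin is cut by Drosha and Dicer-1 into a duplex. Argonaute keeps one strand, the guide, and the other, the passenger, is mostly lost. Nbr is an exonuclease that shortens the 3′ ends of miRNAs held in Argonaute, and nucleotidyltransferases such as Tailor add untemplated bases, or tails, to the same end. In flies, miR-980 is known as a suppressor of memory that acts in neurons on the RNA-binding protein Rbfox1, also called A2bp1. Its 3p arm belongs to the seed family of vertebrate miR-22.

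The first 7 letters of each arm, as the deposited table gives them, are shown because the seed within them sets which messenger RNAs a miRNA pairs with. Capitals mark bases 2 to 7, the core of the seed.
miR-980-5p: aGTTTTT
miR-980-3p: tAGCTGC
miR-4968-5p: tAGCTGC
let-7-5p: tGAGGTA
let-7-5p is shown because its letters are the known start of that miRNA, so the column was read as counting from base 1. No other row of the table shares the letters of miR-980-5p. Only miR-4968-5p, encoded on chromosome 3L, shares those of miR-980-3p. Its reads numbered 17 in nbrKO, against 21 with Nbr(wt), 13 with NbrCTD and 11 in the NbrCTD-GWp library. In these libraries nearly all reads with these letters were thus miR-980-3p itself.

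In the Ensembl annotation of assembly BDGP6.54, mir-980 (FBgn0262266) is at chrX:280172-280269 on the minus strand, a hairpin of 98 bases. The annotated 3p miRNA (mir-980-RA) spans 280188 to 280209, which is 22 bases, and the annotated 5p miRNA (mir-980-RB) spans 280231 to 280254, which is 24 bases. On the same strand, the gene ewg spans 268509 to 279718. On the strand opposite to CG3777, mir-980 lies in intron 1 of the CG3777 transcript FBtr0070066, between exons 1 and 2. It lies outside the other annotated CG3777 transcripts. Its nearest annotated miRNA genes on X are mir-4915, 146670 bases away, and mir-4960, 289634 bases away. mir-4915 has no row in the table. mir-4960 summed to 4 reads in nbrKO, 3 with NbrCTD-GWp and none listed in the other two. Neither gave enough reads to be compared with mir-980. The deposited table places the 5′ ends at X positions 174287 for 5p and 174242 for 3p, in a build that is not given in the sources used here. The ends are 45 bases apart there and 45 apart in the annotation.

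The steps between RPM values correspond to totals of 24005045 to 32488012 reads per library. Levels are given in miRNA RPM, RPM recomputed with the library's reads in 261 joined miRNA arms (12780303 to 19639187) as the total. Intervals are exact at 95% and cover counting error only. As a check of the label, 6 miRNAs common in S2 cells summed to 649724 to 699869 miRNA RPM. The 24 markers of other cells, of which 16 were measured, summed to 158 to 275, and 3 had at least 100 reads in every library. Both lists were chosen with earlier results of these data known, so the sums alone do not identify the line. The labels of the constructs could not be checked, because RNA of 18 to 30 nt does not hold Nbr mRNA.

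miR-980-5p, the rarer arm, was scarce in nbrKO and several times more abundant in every library with a construct. It was read 834 times in nbrKO, against 7025 times with Nbr(wt), 6137 with NbrCTD and 5117 in the NbrCTD-GWp library. Its level was 65.3 miRNA RPM in nbrKO (60.9 to 69.8), 358 with Nbr(wt) (349 to 366), 425 with NbrCTD (414 to 435) and 297 with NbrCTD-GWp (288 to 305). No interval overlapped another, and nbrKO stood well below the rest. Against nbrKO the level was 5.48-fold with Nbr(wt) (5.10 to 5.90), 6.51-fold with NbrCTD (6.05 to 7.0) and 4.54-fold with NbrCTD-GWp (4.22 to 4.89). The 3 folds share the single nbrKO library as their base, so any peculiarity of it is in each. In RNA from whole cultures, more cells with a miRNA and more of it per cell cannot be told apart.

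Read against other arms, the difference in miR-980-5p was among the highest. A difference was called where it reached 2-fold on the log2(miRNA RPM + 1) scale and Poisson intervals did not overlap. Of 123 arms averaging at least 100 reads, 6.50% were called higher than nbrKO for Nbr(wt), 8.94% for NbrCTD and 8.13% for NbrCTD-GWp, and 25.2%, 15.4% and 17.1% lower. These shares depend on the scaling: the 8, 11 and 10 arms called higher and the 31, 19 and 21 called lower became 20, 21 and 18 higher and 13, 12 and 12 lower with median-of-ratios size factors. With trimmed means of M values they became 17, 17 and 18 higher and 13, 13 and 12 lower. With total miRNA reads as the scale, miR-980-5p was among the higher arms each time, with log2 differences of 2.44, 2.68 and 2.17 where the medians of all arms were -0.38, -0.11 and -0.21. It ranked 2 from the highest for Nbr(wt), 1 for NbrCTD and 4 for NbrCTD-GWp. Since the gene was chosen for this contrast, nothing is read from these ranks. In nbrKO it stood 88 of 261 arms in abundance, and in the order of the constructs above it stood 58, 59 and 64.

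The arms ranked next to miR-980-5p in nbrKO did not share the difference. They were picked by their nbrKO level alone and miR-980-5p by its difference, so nothing is read from this contrast. The arm just above miR-980-5p in nbrKO, miR-304-3p, had 79.3 miRNA RPM there, 82.3 for Nbr(wt), 99.1 for NbrCTD and 95.3 for NbrCTD-GWp. The arm just below, miR-2279-5p, had 58.2, 41.9, 43.2 and 41.2 in the same order. Not every arm of a similar level stayed as flat: miR-995-5p had 90.8, 124, 196 and 212.

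miR-980-3p, the guide arm, was also highest with NbrCTD, but its differences from nbrKO were smaller. It was read 64283 times in nbrKO, against 165095 times with Nbr(wt), 197777 with NbrCTD and 140652 in the NbrCTD-GWp library. Its level was 5029.8 miRNA RPM in nbrKO (4991 to 5069), 8406 with Nbr(wt) (8366 to 8447), 13682 with NbrCTD (13622 to 13742) and 8151 with NbrCTD-GWp (8108 to 8193). The values with Nbr(wt) and NbrCTD-GWp lay close together, although their intervals did not overlap, and nbrKO was lowest. Against nbrKO the level was 1.67-fold with Nbr(wt) (1.66 to 1.69), 2.72-fold with NbrCTD (2.70 to 2.74) and 1.62-fold with NbrCTD-GWp (1.61 to 1.64). Only the difference with NbrCTD passed the 2-fold threshold, and it ranked 6 of 123. With size factors or trimmed means in place of total miRNA reads, those with Nbr(wt) and NbrCTD-GWp passed it too. The arm held 0.503% of the miRNA reads in nbrKO and 1.37% with NbrCTD.

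**Figure D1:**
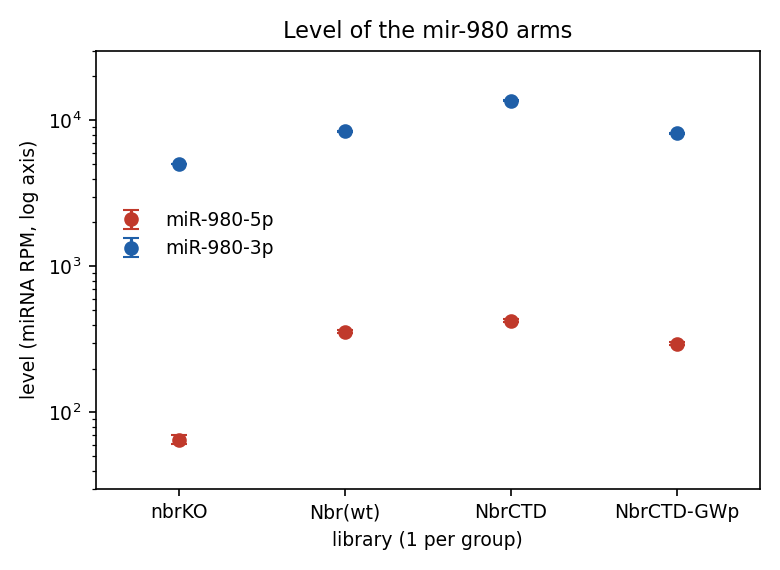
Level of both mir-980 arms in miRNA RPM (log axis) in each library, with exact Poisson intervals at 95% that are mostly narrower than the points. miR-980-5p lies at 65.3 in nbrKO and between 297 and 425 in the others, and miR-980-3p goes from 5029.8 to 13682.

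The arms can be compared within a library without any scaling. In nbrKO there were 1.30 reads of miR-980-5p for every 100 reads of miR-980-3p (1.21 to 1.39). There were 4.26 with Nbr(wt) (4.15 to 4.36), 3.10 with NbrCTD (3.02 to 3.18) and 3.64 with NbrCTD-GWp (3.54 to 3.74). No intervals overlapped: the ratio was lowest in nbrKO, and the constructs lay nearer to each other than to nbrKO. Put the other way, 77.1 guide reads stood against each passenger read in nbrKO, and 23.5, 32.2 and 27.5 with Nbr(wt), NbrCTD and NbrCTD-GWp. The authors' own mark was TRUE for miR-980-3p and FALSE for miR-980-5p in every library.

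Set among 44 precursors with both arms measured, mir-980 went from 42 from the highest in nbrKO to 25 for Nbr(wt), 30 for NbrCTD and 27 for NbrCTD-GWp. The median of these precursors was 9.49 passenger reads per 100 guide reads in nbrKO, against 5.51 with Nbr(wt), 5.73 with NbrCTD and 6.15 in the NbrCTD-GWp library. Of the 44, 33 had a lower ratio than in nbrKO for Nbr(wt), 30 for NbrCTD and 25 for NbrCTD-GWp, counting differences of any size. The ratio of mir-980 was higher than in nbrKO by 3.28-fold, 2.39-fold and 2.80-fold, the largest of the 44 each time. A ratio at least 2-fold higher with non-overlapping intervals was held by 2.27% of the precursors for Nbr(wt), 6.82% for NbrCTD and 4.55% for NbrCTD-GWp. These shares include mir-980, which with Nbr(wt) was the only one. mir-2279 fell just short of 2-fold there, at a log2 difference of 0.999 with non-overlapping intervals. The gene mir-980 was chosen by the level of miR-980-5p, the numerator of its ratio, so nothing is read from these ranks.

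The precursors most like mir-980 in direction are given as a description. The ratio of mir-980 was raised most of all measured precursors each time, and its numerator chose the gene. That these precursors differed less from nbrKO was thus fixed in advance, and nothing is read from it. The pair nearest to mir-980 in its course over the libraries was mir-2279, with 25.7 passenger reads per 100 guide reads in nbrKO, against 51.3 with Nbr(wt), 52.6 with NbrCTD and 42.5 in the NbrCTD-GWp library. Next came mir-995, with 2.02, 2.99, 2.56 and 4.15, and mir-307a, with 12.0, 14.2, 20.9 and 17.9. The other precursors among the 3 highest changes with a construct were mir-1006, at 1.76, 2.61, 1.63 and 2.06, and mir-999, at 1.95, 2.36, 4.60 and 1.86. Unlike mir-980, mir-1006 was lower than nbrKO with NbrCTD and mir-999 with NbrCTD-GWp, in each case with overlapping intervals.

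**Figure D2:**
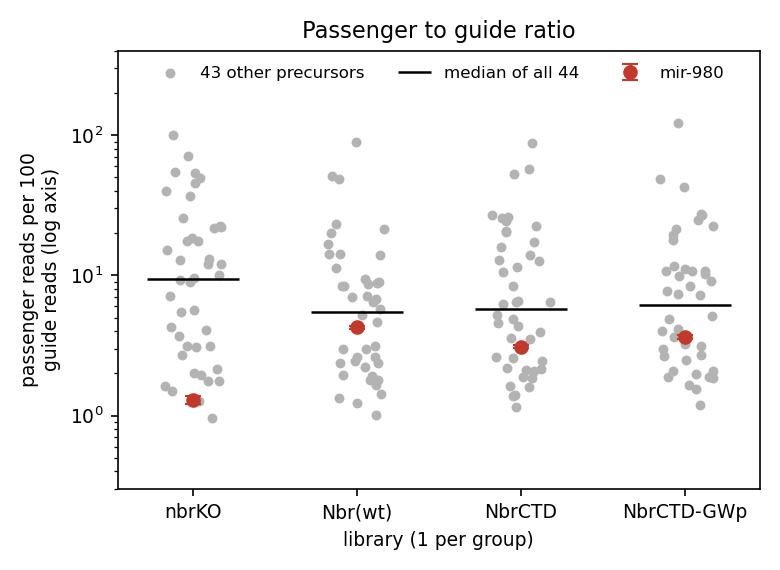
Passenger reads per 100 guide reads (log axis) of 44 precursors in each library: mir-980 in red with its exact 95% interval, the others in grey, scattered sideways for sight only, and the median of all 44 as a line. mir-980 lies near the bottom in nbrKO at 1.30 and nearer to the median but still below it in the others, at 3.10 to 4.26.

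Tails set the arms apart. The tailed share is the PM reads of an arm over its GM and PM reads, with the headers GM and PM read as genome-matching and prefix-matching. miR-980-3p was a heavily tailed guide in every library: 10.4% in nbrKO (10.1 to 10.6), 9.07% with Nbr(wt) (8.93 to 9.21), 13.0% with NbrCTD (12.9 to 13.2) and 6.06% with NbrCTD-GWp (5.93 to 6.18). No intervals overlapped, and the order ran from NbrCTD-GWp at the bottom over Nbr(wt) and nbrKO to NbrCTD at the top. The median of the 114 arms that reached 100 reads in each library was 3.01%, 2.05%, 2.73% and 2.25% in the order nbrKO, Nbr(wt), NbrCTD, NbrCTD-GWp. miR-980-3p ranked 14, 9, 7 and 18 from the highest of these.

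The passenger arm had few tails. Its tailed share was 2.52% in nbrKO (1.57 to 3.82, on 21 tailed reads), 0.797% with Nbr(wt) (0.603 to 1.03), 0.912% with NbrCTD (0.690 to 1.18) and 1.02% with NbrCTD-GWp (0.760 to 1.33). The interval of nbrKO lay above those of all constructs, whose own intervals overlapped each other. It ranked 68 of 114 in nbrKO, and 101, 102 and 94 in the others. A difference among the constructs in this arm was not detectable at this depth.

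Non-overlapping intervals were common among all arms, so the counts for mir-980 are read against them. With Nbr(wt), 48.2% of the 114 arms were lower than nbrKO and 5.26% higher, and both mir-980 arms were lower. With NbrCTD, 32.5% were lower, among them miR-980-5p, and 18.4% higher, among them miR-980-3p. With NbrCTD-GWp, 44.7% were lower, both mir-980 arms included, and 7.02% higher. The change of miR-980-3p with Nbr(wt), -1.29 percentage points, lay beside a median change of -0.72 over all arms and left the share at 0.876 of that in nbrKO. The median share went from 3.01% to 2.05% there, while miR-980-3p moved from rank 14 to rank 9 from the highest. In proportion its fall was thus not a large one. With NbrCTD miR-980-3p gained 2.66 points, the 8th highest of 114, where the median change was -0.27. With NbrCTD-GWp it fell by 4.30 points, where the median change was -0.60.

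The constructs were also set against each other without nbrKO. In miR-980-3p, NbrCTD stood 3.95 points above Nbr(wt), where 39.5% of arms were higher, and ranked 8 from the largest rise. NbrCTD-GWp minus Nbr(wt) was -3.01 points, where 10.5% of arms were lower, and ranked 4 from the largest fall. NbrCTD-GWp minus NbrCTD was -6.96 points, where 35.1% were lower, and ranked 5. Ranks in points, here and above, favour arms with a high tailed share. Intervals also separate more readily in arms with more reads. The guides next to miR-980-3p in nbrKO abundance had other orders. miR-998-3p had tailed shares of 12.1%, 7.36%, 17.1% and 9.58% and miR-995-3p of 7.07%, 4.63%, 6.0% and 3.61%, in the order nbrKO, Nbr(wt), NbrCTD, NbrCTD-GWp.

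**Figure D3:**
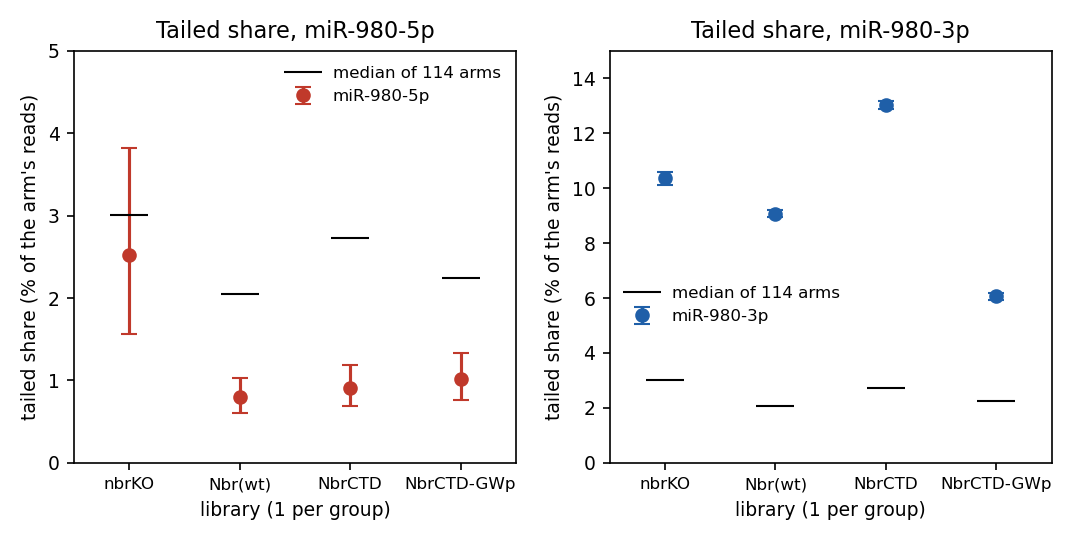
Tailed share of each arm in percent of its reads, by library, with exact Clopper-Pearson intervals at 95%, and the median of 114 arms as a bar. The left and right axes differ in range: miR-980-5p goes from 2.52% to about 1%, below the median, and miR-980-3p runs from 6.06% to 13.0%, above it.

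Separating tailed from untailed reads shows which part of each arm differed. Untailed miR-980-5p was 63.6 miRNA RPM in nbrKO, against 355 with Nbr(wt), 421 with NbrCTD and 294 in the NbrCTD-GWp library. Tailed miR-980-5p was 1.64, 2.85, 3.87 and 3.01. Both parts were higher with a construct, the untailed by 5.58-fold, 6.61-fold and 4.61-fold and the tailed by 1.74-fold (1.03 to 3.02), 2.36-fold (1.41 to 4.10) and 1.83-fold (1.09 to 3.21). The lower tailed share of this arm thus went with more untailed reads, not with fewer tailed ones.

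In miR-980-3p, the untailed level was 4509 miRNA RPM in nbrKO, against 7644 with Nbr(wt), 11901 with NbrCTD and 7657 in the NbrCTD-GWp library. The ratio of NbrCTD-GWp over Nbr(wt) was 1.0 here (0.994 to 1.01), and 0.882 to 1.05 under the other scalings. The tailed level was 521 in nbrKO, against 762 with Nbr(wt), 1781 with NbrCTD and 494 in the NbrCTD-GWp library. Tailed reads with NbrCTD-GWp were 0.647 of those with Nbr(wt) (0.630 to 0.665), and 0.570 to 0.677 under the other scalings. Against nbrKO, tailed reads with NbrCTD-GWp stood at a ratio of 0.948 (0.918 to 0.979). This direction turns with the scaling: the ratio was 1.12 in the authors' RPM, and 1.26 with size factors as with trimmed means. With NbrCTD the tailed level was 3.42-fold that of nbrKO (3.33 to 3.51), against 2.64-fold for the untailed.

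**Figure D4:**
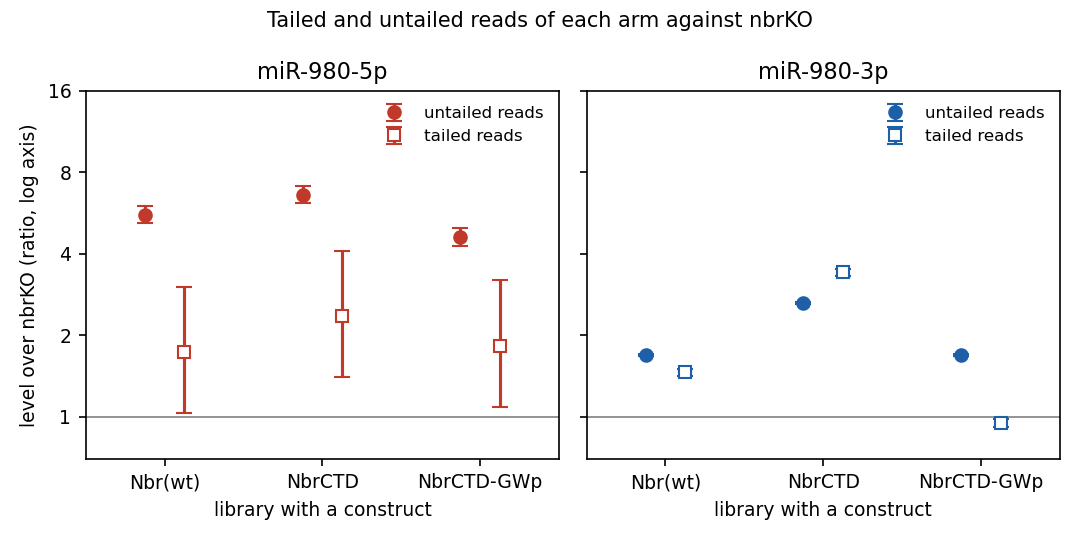
Ratio of each construct's level to that of nbrKO (log axis) for untailed (filled) and tailed (open) reads of each arm, with exact conditional intervals at 95% and a line at 1. Untailed miR-980-5p lies at 4.61 to 6.61 and its tailed reads at 1.74 to 2.36, while tailed miR-980-3p spans 0.948 to 3.42, with its lowest point (NbrCTD-GWp) below 1 here but at 1.12 to 1.26 under the other scalings.

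The 5′ ends hardly moved. The deposited fraction puts 96.4% of miR-980-5p reads at the listed 5′ end in nbrKO (95.0 to 97.6), 95.8% with Nbr(wt) (95.3 to 96.2), 96.2% with NbrCTD (95.7 to 96.6) and 95.9% with NbrCTD-GWp (95.4 to 96.4). All of these intervals overlapped. For miR-980-3p it was 98.6%, 98.5%, 98.4% and 98.5%, and these intervals overlapped too. Reads with another 5′ end numbered 31, 311, 244 and 217 for 5p and 944, 2458, 3142 and 2072 for 3p. The seeds printed above were thus those of nearly all reads of both arms in every library.

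Arms whose levels ran most like those of mir-980 were sought by the distance between log2(miRNA RPM + 1) profiles over the 4 libraries, each centred on its own mean. For miR-980-5p, the nearest of 121 arms was miR-996-3p at a distance of 0.49, where the median distance was 2.40. miR-996-3p, which with miR-279-3p restrains the formation of neurons, had 1415 miRNA RPM in nbrKO, against 4762 with Nbr(wt), 7551 with NbrCTD and 5217 in the NbrCTD-GWp library. After it came miR-279-3p (0.92), miR-9b-5p (0.95), miR-1009-3p (1.37) and miR-995-5p (1.5). For miR-980-3p, the nearest were miR-1009-3p (0.32), miR-79-3p (0.34), miR-279-3p (0.43), miR-965-3p (0.46) and miR-306-5p (0.57), where the median was 1.25. miR-279-3p and miR-1009-3p stood among the 5 nearest to both arms. With 4 libraries and a low nbrKO value in each profile, these distances are a description only.

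**Figure D5:**
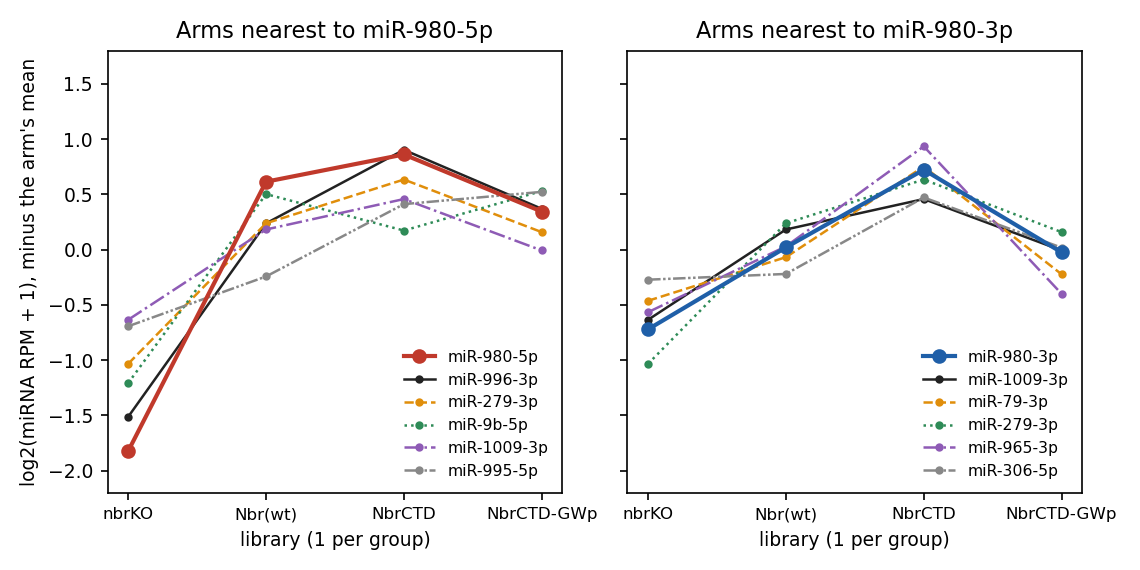
log2(miRNA RPM + 1) minus the arm's mean over the libraries, for each mir-980 arm (thick line) and its 5 nearest arms, with lines joining the libraries for sight only. miR-980-5p and miR-996-3p both lie lowest in nbrKO and highest with NbrCTD, and miR-980-3p is also lowest in nbrKO and highest with NbrCTD, with smaller differences from nbrKO.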

How the data were processed

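Per the labels' protocols, small RNA of 18 to 30 nt from 25 µg of total RNA was depleted of 2S rRNA and ligated to adapters with 4 random bases. Tools named without a role in the submitters' processing notes are cutadapt 1.2.1 and HTSeq 0.9.1. The authors deposited 2 RPM columns per library, headed GM and PM, and a fraction for the leading 5′ end, per the file headers. A further column holds TRUE or FALSE, and the 4 type columns were not used. The aligner and build used were not given in the sources used here.

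RPM values were divided by the most frequent value above 0 in a library, taken as 1 read. Results were whole to 0.01 read for 94.8% to 95.9% of GM and 91.7% to 95.2% of PM values above 0, and for every mir-980 value. With 1 library per group no count model was run. Rows with values throughout made up 261 arms (loci of 1 name and 5′ start summed, 1 duplicate dropped). Intervals are Poisson, Clopper-Pearson or conditional binomial, exact at 95%. A guide is the arm of a pair with more reads over all libraries. Abundance used arms averaging at least 100 reads and a pseudocount of 1, tailed shares those with 100 in every library. Named beside mir-980 were, by rule, the 5 nearest arms, the 3 nearest precursors and the 3 with the largest ratio rise per construct, seed sharers, genomic neighbours and abundance neighbours. The rule foresaw sharing over bases 2 to 8; the table gives letters to base 7, so bases 2 to 7 were used. Members, lists and rules were chosen with earlier results of these data known. Python 3.11.15, numpy 2.4.6, pandas 2.3.3 and scipy 1.17.1 were used.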

Additional observations from a re-analysis of the deposited data

How the results depend on the processing

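Of 152 recomputed values, 80 stayed within counting error or within 1.5 times the main count, 69 moved and 3 changed direction from a difference beyond counting error. These 3 are the tailed level of miR-980-3p with NbrCTD-GWp over nbrKO, 0.948 with total miRNA reads, 1.12 in the authors' RPM, and 1.26 with size factors and with trimmed means. The 80 include sums over listed isoforms, which could not differ because no further isoform of mir-980 was listed. Scalings of tailed and untailed levels were added after seeing the data. miR-980-5p stayed past 2-fold against nbrKO in every setting, at log2 differences of 2.44 to 3.02 with Nbr(wt), 2.68 to 3.04 with NbrCTD and 2.17 to 2.57 with NbrCTD-GWp. Scaling moves all arms together: against total miRNA reads, log2 differences shift with Nbr(wt), NbrCTD and NbrCTD-GWp by 0.18, 0.04 and 0.25 in the authors' RPM, by 0.59, 0.36 and 0.41 with median-of-ratios size factors, and by 0.52, 0.28 and 0.41 with trimmed means of M values. In the same order of constructs, miR-980-5p became 2.60 and 2.40 (Nbr(wt) and NbrCTD-GWp) in the authors' RPM, 3.02, 3.04 and 2.57 with size factors, and 2.95, 2.95 and 2.57 with trimmed means. miR-980-3p became 0.92, 1.48 and 0.94, then 1.33, 1.8 and 1.10, then 1.26, 1.72 and 1.11, so its differences with Nbr(wt) and NbrCTD-GWp pass 2-fold only under size factors and trimmed means. From GM reads alone it was 1.40 with NbrCTD and 0.75 with NbrCTD-GWp.

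GM reads alone gave 1.41, 4.64, 3.53 and 3.83 reads of 5p per 100 of 3p in nbrKO, Nbr(wt), NbrCTD and NbrCTD-GWp. Whole arms, an alternative added after seeing the data, gave 4.38 with Nbr(wt). In the same order of constructs, 8, 11 and 10 arms were past 2-fold higher and 31, 19 and 21 lower. Size factors gave 20, 21 and 18 higher and 13, 12 and 12 lower. Trimmed means gave 17, 17 and 18 higher and 13 lower with Nbr(wt) and 12 with NbrCTD-GWp. With no filter on low values, 49, 34 and 35 were lower and 8, 12 and 12 higher. These counts come from a larger set of arms than the filtered ones, so a higher count is not a higher share. No setting with 30 or 1000 reads as the minimum moved the counts of tailed shares by over 1.5 times. Only 1 row per arm was listed, so summing isoforms changed nothing. It was the only alternative for the tailed shares of the mir-980 arms, so their dependence on processing was not tested. No paired analysis was possible because each group holds 1 library, and for the same reason no replicate could be left out. Depth limits the tailed share of miR-980-5p most, with 21 tailed reads in nbrKO.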
